A study of Bos taurus with 18 samples.

Results

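Antral granulosa was compared with membrane granulosa of the same preovulatory follicle, after LH, in 3 cows. Antral granulosa is the fraction aspirated from the follicle with its fluid, and membrane granulosa is the fraction that stays attached to the follicle wall. The labels of 6 of the 18 arrays of the series chose the samples: the 3 antral and the 3 membrane arrays of cows A, B and C, whose single dominant follicle was taken 22 h after GnRH given to set off the LH surge. Each array holds RNA of 1 population of 1 follicle, hybridised to an Affymetrix bovine expression array. Theca arrays of the same cows, and antral and membrane arrays of cows D, F and G taken before the surge, are given beside these values. No breed, age or further treatment of the cows is used here. The question of this comparison is how the aspirated and the wall-bound cells of 1 granulosa layer differ after the surge.

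The granulosa lines the antrum of the follicle and rests on a basal lamina, outside which lie the theca, with its steroid-producing cells, fibroblasts, smooth muscle and blood vessels. After the LH surge granulosa cells leave the cell cycle, turn from oestradiol to progesterone synthesis, and the layer loosens while the hyaluronan matrix around the oocyte expands and the basal lamina is broken down. Mural cells near the basal lamina and cells near the antrum are known to differ.

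Levels are deposited log2 signals per probe set, on which a difference of 1 is a 2-fold difference. All differences are antral minus membrane, fitted with limma within cows on 24016 probe sets, and are given with their standard error (n = 3 cows). A probe set was called at a Benjamini-Hochberg adjusted p of 0.05. The standard error pools the spread over all 6 groups of arrays. Each gene was read from the probe set with the highest mean over the 18 arrays, and levels of different genes cannot be set against each other. The files hold no detection calls. The 8005 dimmest probe sets have means below 4.62, which is used as a limit: a probe set under it on all 3 arrays of a group has only a bound there, and its difference is given as "at least". These are bulk RNA samples, in which fewer cells of a type and less RNA per cell cannot be told apart.

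After LH the antral granulosa carried less RNA than the membrane granulosa of 5 of 15 measured fibroblast and stroma markers, among them the collagen gene COL3A1, of 4 of 10 theca markers, among them INSL3, and of 3 of 11 smooth muscle and pericyte markers. The rises were smaller, with the chemokine CCL3 the largest among the genes read. Of 24016 probe sets 343 were higher in antral granulosa (1.43%) and 378 were lower (1.57%), and all 721 went the same way in all 3 cows. Of all probe sets, called or not, 11952 did so. The test within these same cows favours probe sets with 1 direction, so the agreement adds no support to the calls. Read by gene, 106 of 9155 were higher (1.16%) and 206 were lower (2.25%). The falls were the larger ones. Their median was -0.86, 143 were at least 2-fold and 52 at least 4-fold, while the median of the rises was 0.65, 19 were at least 2-fold and 0 reached 4-fold. The groups did not overlap for 3600 probe sets that were higher (15%) and 1903 that were lower (7.92%), with or without a call.

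The number of calls fell with any of the 3 cows left out. Without cow A 5 probe sets were called, without cow B 0 (3662 at an unadjusted p under 0.05 in limma) and without cow C 280, of which 200 were among the 721. The log2 difference of ALDH1A1, the gene with the largest fall, was -5.20, -5.84 and -6.04 in these fits, against -5.69 with all cows. Without the cow as a block 297 probe sets were called. With only the granulosa arrays in the fit 1226 were called, and 22 more of the named genes passed the threshold, all lower in antral granulosa.

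**Figure D1:**
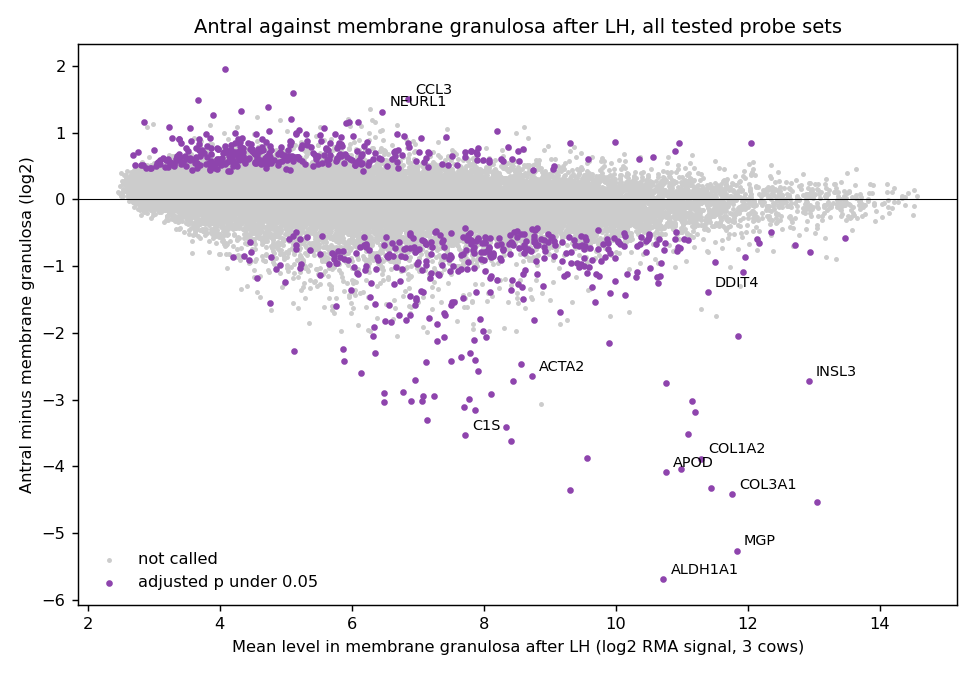
Each point is 1 of the 24016 tested probe sets, with its mean log2 level in membrane granulosa after LH on the horizontal axis and the antral minus membrane difference (log2, 3 cows) on the vertical axis. The 721 called probe sets are purple. Falls reach -5.69 (ALDH1A1) and lie at middle and high membrane levels, whereas rises stay below 2 and gather at low levels.

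The fractions were checked against markers of granulosa and theca. FSHR, the receptor for FSH, stood at 6.18, 6.43 and 5.80 in antral granulosa of cows A, B and C, at 6.39, 7.05 and 5.25 in membrane granulosa and at 4.21, 4.69 and 3.87 in theca. AMH, anti-Müllerian hormone, stood at 7.64, 7.96 and 7.30 in antral granulosa, 7.70, 8.20 and 6.60 in membrane granulosa and 5.40, 6.12 and 5.16 in theca. Both genes were higher on all granulosa arrays than on any theca array. FOXL2, a granulosa transcription factor, lay below 4.62 on all of these arrays. INSL3, the hormone of theca cells, was bright in theca and above the limit on every granulosa array as well. CYP17A1, which makes androgen, read low even in theca after LH (5.28, 5.57 and 5.61), and PTCH1, a receptor used as a theca marker, lay below the limit throughout.

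ALDH1A1, the enzyme that makes retinoic acid from retinal, showed the widest gap. It stood at 4.05, 5.76 and 5.28 in antral granulosa of cows A, B and C, against 10.73, 11.15 and 10.28 in membrane granulosa, and at 13.51, 13.58 and 12.17 in theca. The 2 granulosa groups lay far apart, with the antral arrays near the dim limit and theca above both. The difference was a fall of 5.69 ± 0.69 (adjusted p = 0.00776), a level 51.8-fold lower in antral granulosa. MGP, matrix Gla protein, an inhibitor of calcification, stood at 6.09, 4.19 and 9.43 in antral granulosa, against 11.45, 11.42 and 12.62 in membrane granulosa. It fell by 5.27 ± 0.75 (adjusted p = 0.0132), and cow C was the least different of the 3. Its other probe sets did not show this: the 1 of 3 above the limit read 6.43 in antral and 6.17 in membrane granulosa.

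Fibrillar collagens and their partners followed. COL3A1, the chain of collagen III, stood at 6.18, 6.19 and 9.67 in antral granulosa, against 11.03, 11.35 and 12.92 in membrane granulosa, and fell by 4.42 ± 0.68 (adjusted p = 0.0146). COL1A2, a chain of collagen I, stood at 6.46, 6.43 and 9.32 in antral granulosa, against 10.69, 10.98 and 12.21 in membrane granulosa, and fell by 3.89 ± 0.54 (adjusted p = 0.0132). In both genes the groups stayed apart and cow C was the highest in each fraction. Second probe sets of COL3A1 and COL1A2 fell by 4.33 and 4.04. DCN, the collagen-binding proteoglycan decorin, stood at 8.77, 6.36 and 8.91 in antral granulosa, against 10.31, 10.32 and 11.67 in membrane granulosa. The fall of 2.76 ± 0.44 (adjusted p = 0.0156) was -1.54, -3.97 and -2.76 by cow, least in cow A. OGN, another small proteoglycan, stood at 3.58, 3.87 and 4.05 in antral granulosa, all below the limit, against 6.75, 7.46 and 7.21 in membrane granulosa, and fell by at least 2.51 (adjusted p = 0.00678).

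Of the 15 largest falls 4 were APOD, CCN2, SPARCL1 and A2M, whose products are secreted. APOD, a lipid-carrying lipocalin, stood at 6.21, 6.50 and 7.29 in antral granulosa, against 10.09, 11.02 and 11.18 in membrane granulosa, and fell by 4.09 ± 0.60 (adjusted p = 0.0142). Its 2 other probe sets were called lower too. CCN2, connective tissue growth factor, stood at 7.75, 7.36 and 8.94 in antral granulosa, against 10.39, 10.56 and 12.65 in membrane granulosa, and fell by 3.18 ± 0.39 (adjusted p = 0.00776). Neither gene overlapped between the groups. SPARCL1, a matrix glycoprotein, stood at 3.74, 3.88 and 6.76 in antral granulosa, 2 of them below the limit, against 7.33, 8.22 and 9.69 in membrane granulosa, and fell by 3.62 ± 0.69 (adjusted p = 0.0277). A2M, a broad protease inhibitor, stood at 6.52, 5.93 and 10.31 in antral granulosa, against 10.03, 10.28 and 12.97 in membrane granulosa. It fell by 3.51 ± 0.72 (adjusted p = 0.031), yet the groups overlapped, because the antral array of cow C lay above the membrane arrays of cows A and B.

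The complement components C1S and C7 were lower as well. C1S, a protease that starts the classical pathway, stood at 3.98, 4.24 and 4.33 in antral granulosa, all below the limit, against 7.23, 7.40 and 8.51 in membrane granulosa, and fell by at least 3.09 (adjusted p = 0.00652). C7, a part of the membrane attack complex, stood at 3.37, 3.46 and 4.85 in antral granulosa, against 5.89, 5.92 and 8.54 in membrane granulosa, and fell by 2.89 ± 0.50 (adjusted p = 0.0206). Of matrix enzymes and basal lamina proteins, ADAMTS4, a protease that cuts proteoglycans, stood at 4.45, 3.90 and 6.04 in antral granulosa, against 8.31, 6.45 and 8.58 in membrane granulosa. It fell by 2.98 ± 0.53 (adjusted p = 0.0225), with no overlap. COL15A1, a collagen of basement membrane zones, fell by 3.11 ± 0.73 (adjusted p = 0.0435), and NID1, which links laminin to collagen IV, by at least 1.87 (adjusted p = 0.028). For COL15A1 a second probe set missed the threshold (-1.97, adjusted p = 0.0507). COL15A1 was called in 7 of 16 alternative fits, the fewest among the 15 largest falls. It was lost with trend and robust, with no replicate block and with cow A, B or C left out.

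**Figure D2:**
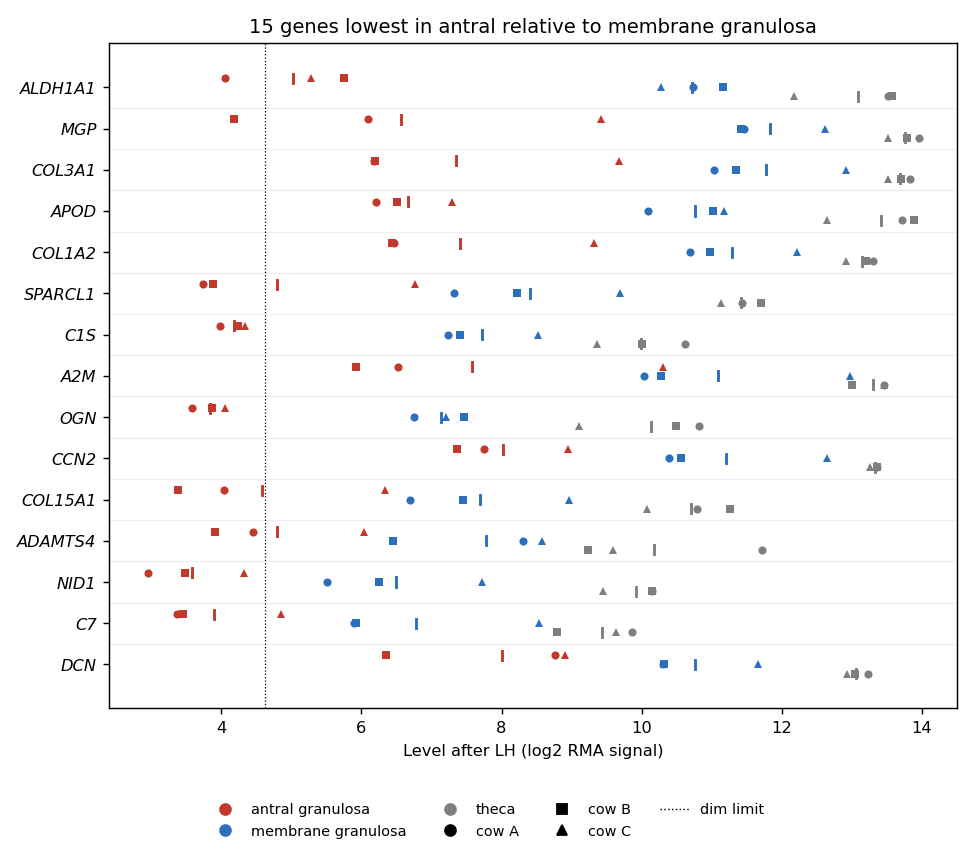
Log2 levels after LH of the 15 genes with the largest falls, 1 row per gene, in antral granulosa (red, upper), membrane granulosa (blue, middle) and theca (grey, lower), with cows as symbols, means as vertical ticks and the limit of 4.62 as a dotted line. Antral arrays lie left of membrane arrays in every gene but A2M, where the groups overlap, and all theca means lie right of the membrane means.

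Before the surge, in cows D, F and G, all 15 of these genes were also lower in antral granulosa in 3 of 3 cows, and 9 were called there. On that side 426 probe sets were called (1.77%). COL3A1 read -6.85 before LH (adjusted p = 0.000643) and ALDH1A1 -4.39 (adjusted p = 0.0125). The test of the difference between the 2 stages called 0 probe sets (0%) in limma, with 2236 at an unadjusted p under 0.05 and a smallest adjusted p of 0.0503.

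**Figure D3:**
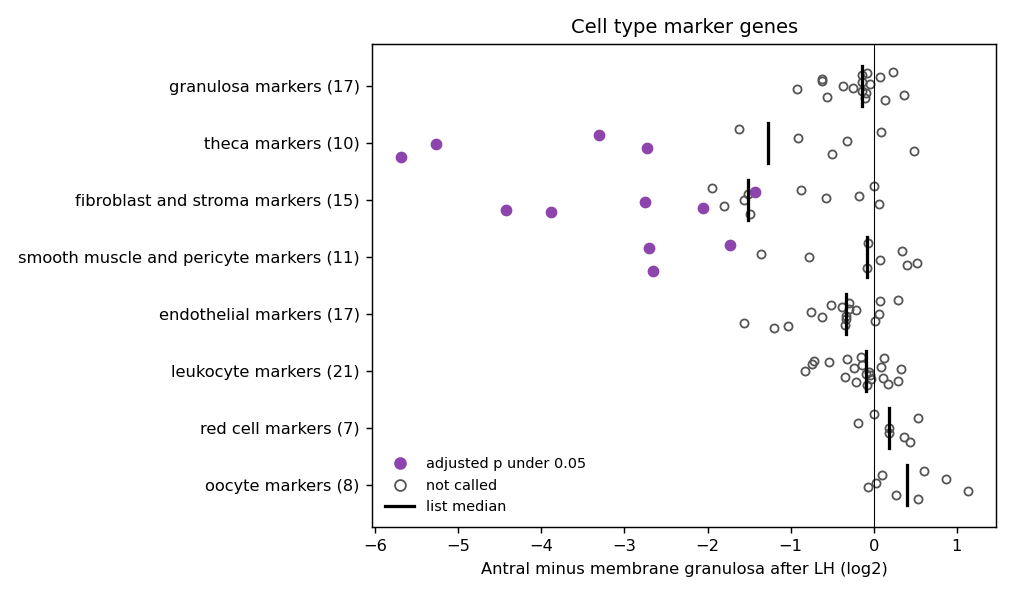
Antral minus membrane difference after LH (log2) of each measured gene in 8 lists of cell type markers, with the number measured in brackets, called genes filled and list medians as bars. Called genes appear in the theca, fibroblast and smooth muscle lists, on the lower side, and in no other of the 8.

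Some markers of theca and stroma were among the falls. Of 10 measured theca markers 4 fell (40%; ALDH1A1, MGP, OGN and INSL3) and 0 rose, with a median difference of -1.27. In 3 of 3 cows 7 were lower and 2 higher, and CYP17A1 had the highest difference of the list, 0.48. The lists were chosen with earlier results of these data known, and ALDH1A1, MGP and OGN are also among the 15 largest falls. The 40% is thus no independent support for these falls. Over all 9155 genes 2.25% fell and 1.16% rose, with a median of -0.01, and 2431 were lower and 2199 higher in 3 of 3 cows. INSL3 stood at 9.28, 10.24 and 11.08 in antral granulosa, against 12.23, 13.32 and 13.22 in membrane granulosa and 14.31, 14.60 and 13.95 in theca. The groups did not overlap, and INSL3 fell by 2.72 ± 0.53 (adjusted p = 0.0277). Of 15 fibroblast and stroma markers 5 fell (33.3%; COL3A1, COL1A2, DCN, COL5A2 and LUM), 0 rose and 12 were lower in 3 of 3 cows, with a median of -1.52. COL5A2, a chain of collagen V, fell by 2.06 ± 0.40 (adjusted p = 0.0277) and LUM, lumican, by 1.43 ± 0.35 (adjusted p = 0.0467), the second with overlapping groups. Of 11 smooth muscle and pericyte markers 3 fell (27.3%) and 3 were higher in 3 of 3 cows. ACTA2, smooth muscle actin, stood at 5.81, 5.15 and 7.27 in antral granulosa, against 7.76, 8.23 and 10.20 in membrane granulosa, and fell by 2.65 ± 0.51 (adjusted p = 0.0277). RGS5, a pericyte regulator of G proteins, fell by at least 2.34 (adjusted p = 0.0461) and TAGLN, transgelin, by 1.73 ± 0.41 (adjusted p = 0.0453), with overlap. The median of this list was -0.08.

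The summed level (log2 of the sum of linear signals) of the theca list and of the fibroblast and stroma list gives the same order. Not every other list follows it, and for the red cell and oocyte markers the antral sum was the higher in each cow. For the 10 theca markers it was 10.59, 11.22 and 11.89 in antral granulosa of cows A, B and C, against 13.41, 14.04 and 14.17 in membrane granulosa, and 15.71, 15.78 and 15.10 in theca. For the 15 fibroblast and stroma markers it was 11.75, 11.55 and 12.39 in antral granulosa, against 13.17, 13.30 and 14.61 in membrane granulosa, and 15.85, 15.72 and 15.49 in theca. Membrane arrays lay between antral and theca arrays in each cow for both lists. What part theca or stroma RNA in the membrane fraction has in the falls was not tested.

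Markers of endothelium, leukocytes and red cells were not called, but some passed in other fits. Of 17 endothelial markers 0 were called in limma (5 at an unadjusted p under 0.05), with a median of -0.33. In 3 of 3 cows 8 were lower and 1 higher, against 2431 lower and 2199 higher of all 9155 genes. CDH5, the cadherin of endothelial junctions, lay below the limit on all antral arrays, against 5.09, 5.28 and 5.74 in membrane granulosa, a difference of at least 0.74 that missed the threshold (adjusted p = 0.0525). CDH5 was called in 7 alternative fits, with adjusted p from 0.00919 with only the granulosa arrays to 0.0497 with trend and robust, and CLDN5, a claudin of endothelial junctions, at -1.04, was called with only the granulosa arrays (adjusted p = 0.0197). Their summed level was 9.10, 9.31 and 9.08 in antral granulosa, against 9.37, 9.73 and 10.01 in membrane granulosa. Of 21 leukocyte markers 0 were called and 0 had an unadjusted p under 0.05 (median -0.09), with 4 lower and 4 higher in 3 of 3 cows. The summed level of the 21 was 9.92, 10.12 and 10.32 in antral granulosa, against 9.79, 10.25 and 10.75 in membrane granulosa. PTPRC, the leukocyte antigen CD45, stood at 5.52, 5.96 and 6.60 in antral granulosa, against 6.08, 6.87 and 7.29 in membrane granulosa, and read -0.72 (95% interval -1.64 to 0.20). With only the granulosa arrays PTPRC (adjusted p = 0.0276) and CORO1A, an actin-binding protein of leukocytes, at -0.83 (adjusted p = 0.0182), were called. CORO1A read 0.34 with the level of control RNA added in the laboratory as a covariate. Of 7 red cell markers 0 were called (2 at an unadjusted p under 0.05, median 0.18). HBM, a globin gene, read 0.53 (adjusted p = 0.0596, and 0.0477 with a random block).

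Of 8 oocyte markers 0 were called in limma (3 at an unadjusted p under 0.05, median 0.40), and 1 array stood apart. KPNA7, an importin of oocytes and embryos, stood at 6.35, 3.18 and 2.86 in antral granulosa, against 3.21, 2.90 and 2.87 in membrane granulosa. The antral array of cow A was far above the others, all of which lay below the limit. ZP2, a protein of the zona pellucida around the oocyte, showed the same array on top, at 5.83, 4.22 and 3.70 in antral granulosa, against 3.61, 3.64 and 3.88 in membrane granulosa. The summed level of the 8 markers was 8.25, 7.43 and 7.20 in antral granulosa, against 7.22, 7.25 and 7.09 in membrane granulosa. ZP2 was named after its values were seen.

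Granulosa markers gave no call in either direction among 17 measured genes (2 at an unadjusted p under 0.05, median -0.14). INHA, the inhibin alpha subunit, was bright in both fractions, at 14.23, 14.19 and 14.29 in antral granulosa, against 14.34, 14.34 and 14.15 in membrane granulosa, and its difference had a 95% interval of -0.31 to 0.22. INHBA, the activin beta A subunit, stood at 9.93, 10.87 and 8.38 in antral granulosa, against 10.31, 11.37 and 7.89 in membrane granulosa. Both fractions were lowest in cow C, and the interval was -0.85 to 0.58. The intervals of FSHR (-0.70 to 0.51) and AMH (-0.44 to 0.70) also spanned 0. The widest difference of the list was that of GATM, an enzyme of creatine synthesis. It stood at 7.26, 7.42 and 8.35 in antral granulosa, against 8.39, 8.37 and 9.03 in membrane granulosa, with no overlap, and read -0.92 (adjusted p = 0.165, and 0.0146 with only the granulosa arrays). Before LH GATM was called lower, at -1.75 (adjusted p = 0.0354). Among the 25 measured genes of inhibin, activin and BMP signalling 0 were called (5 at an unadjusted p under 0.05, median -0.14), with ID2, a target of BMP signals, at -0.77 (adjusted p = 0.064, and 0.0387 with only the granulosa arrays).

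Of 23 measured genes of the ovulatory cascade 1 fell, ADAMTS4, and 0 rose (median -0.07). That is 4.35%, near the 3.41% of all genes called in either direction. PTX3, a protein that organises the hyaluronan matrix, stood at 13.22, 13.11 and 13.18 in antral granulosa, against 13.52, 13.20 and 13.52 in membrane granulosa, with an interval of -0.77 to 0.29. TNFAIP6, which links hyaluronan chains, stood at 14.56, 14.51 and 14.49 in antral granulosa, against 14.51, 14.46 and 14.30 in membrane granulosa. These arrays lie close to the brightest value of the table, 14.90, where a difference can be understated. HAS2, which makes hyaluronan, stood at 8.05, 8.08 and 7.70 in antral granulosa, against 8.10, 8.05 and 7.35 in membrane granulosa (interval -0.14 to 0.36). PTGS2, the inducible prostaglandin synthase, stood at 12.41, 12.31 and 11.47 in antral granulosa, against 12.54, 12.56 and 10.66 in membrane granulosa (interval -0.42 to 0.71). For PTGS2 cow C was the lowest in both fractions and was the 1 cow in which the antral array was the higher. PGR, the progesterone receptor, lay below the limit on all 6 arrays.

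ADAMTS1, a protease of the ovulating follicle, gave different answers by probe set and by stage. Its brightest probe set stood at 10.71, 10.02 and 10.21 in antral granulosa, against 10.89, 10.19 and 10.76 in membrane granulosa, and read -0.30 (95% interval -0.79 to 0.18, adjusted p = 0.439). A second, dimmer probe set was called lower, at -1.23 (adjusted p = 0.0379). Before LH the brightest probe set read -2.04 (adjusted p = 0.00108). The difference between the stages had an unadjusted p of 0.000119 and was not called over all probe sets.

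Steroid synthesis genes gave 0 calls of 17 measured in limma (2 at an unadjusted p under 0.05, median -0.04), with a wide spread between cows. STAR, which carries cholesterol into mitochondria, stood at 7.77, 5.41 and 11.32 in antral granulosa, against 9.23, 8.38 and 12.12 in membrane granulosa and 12.28, 11.82 and 12.29 in theca. The antral array was the lower in each cow, the groups overlapped, and the difference of -1.75 had an interval of -3.48 to -0.01 (adjusted p = 0.214, and 0.0312 with only the granulosa arrays). CYP11A1, which makes pregnenolone, stood at 9.16, 6.38 and 11.76 in antral granulosa, against 8.64, 8.04 and 13.10 in membrane granulosa. Its sign differed between cows, at 0.52, -1.66 and -1.34, and the interval was -1.92 to 0.27. HSD3B1, which makes progesterone, stood at 12.66, 11.34 and 13.42 in antral granulosa, against 12.10, 10.30 and 13.78 in membrane granulosa, with an interval of -0.25 to 1.07. All 3 genes were highest in cow C in both fractions. CYP19A1, the aromatase, was near the limit in both (3.89, 4.49 and 3.89 in antral granulosa, against 5.29, 4.99 and 3.70 in membrane granulosa), and HSD17B1, which makes oestradiol from oestrone, read -0.37 (adjusted p = 0.468). CYP17A1 read 0.48 (interval -0.94 to 1.91) and NR5A1, a steroidogenic transcription factor, 0.63 (adjusted p = 0.0783).

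**Figure D4:**
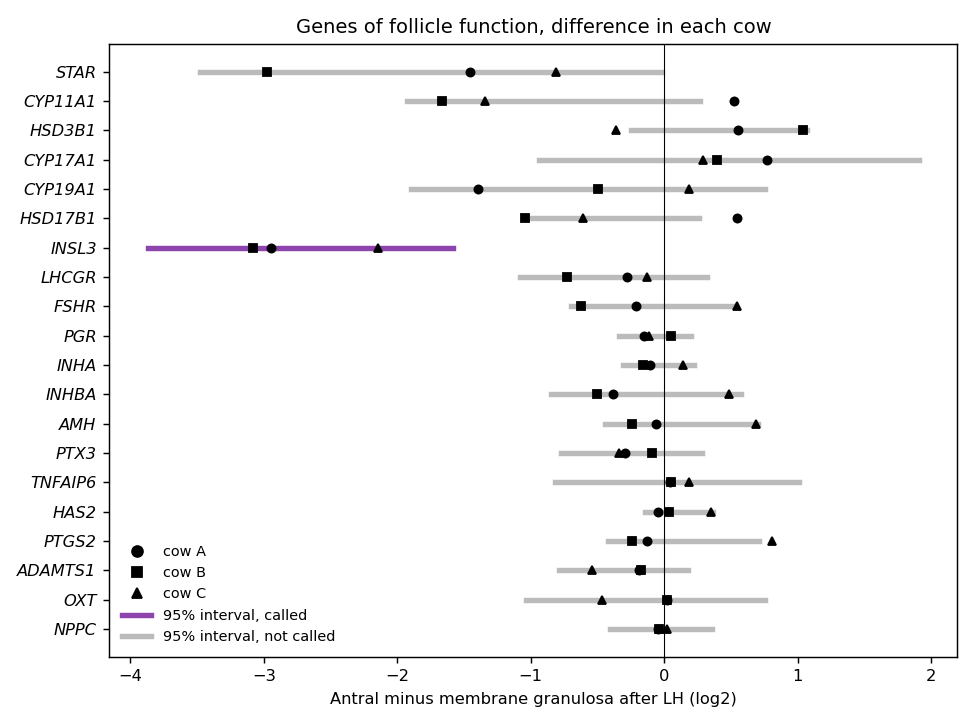
Antral minus membrane difference after LH (log2) of 20 genes of follicle function in cows A, B and C (symbols), with the 95% interval of the fitted difference as a bar. INSL3 is the 1 called gene, with all 3 cows below -2, and the intervals of the others are grey.

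Of 16 hormone receptors 3 fell, by less than 1 (18.8%, against 2.25% of all genes). NR3C1, the glucocorticoid receptor, fell by 0.63 ± 0.15 (adjusted p = 0.0415), PGRMC1, a membrane-bound progesterone receptor component, by 0.51 ± 0.12 (adjusted p = 0.0466) and ADIPOR2, a receptor for adiponectin, by 0.69 ± 0.12 (adjusted p = 0.0235). A second, dimmer probe set of PGRMC1 read 0.10 (adjusted p = 0.811). LHCGR, which binds LH, stood at 5.14, 5.24 and 5.05 in antral granulosa, against 5.42, 5.97 and 5.18 in membrane granulosa (interval -1.08 to 0.32). Of 22 genes of cholesterol synthesis and uptake 1 fell (4.55%), SREBF1, a regulator of lipid synthesis, by 0.78 ± 0.16 (adjusted p = 0.0304), but 2 other probe sets of it above the limit read -0.04 and -0.05. SCARB1, which takes up lipoprotein cholesterol, read -1.01 (interval -1.82 to -0.19), and was called with only the granulosa arrays (adjusted p = 0.0116). Of 16 luteal and neuropeptide genes 0 were called (3 at an unadjusted p under 0.05, median 0.08). OXT, the oxytocin precursor, stood at 12.48, 11.75 and 14.16 in antral granulosa, against 12.45, 11.73 and 14.63 in membrane granulosa, highest in cow C in both, and NPPC, which holds the oocyte in meiosis, lay below the limit on all 6 arrays.

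Cell cycle genes gave 4 falls and 0 rises among 37 measured (10.8%, against 2.25% of all genes, median -0.19). CCND2, a G1 cyclin, stood at 5.83, 6.29 and 5.91 in antral granulosa, against 6.57, 7.44 and 7.56 in membrane granulosa and 8.18, 8.26 and 8.19 in theca. It fell by 1.18 ± 0.21 (adjusted p = 0.0232), with no overlap. PCLAF, a factor that binds the replication clamp, stood at 4.40, 6.06 and 6.03 in antral granulosa, against 5.74, 7.07 and 8.12 in membrane granulosa and 9.70, 10.41 and 9.41 in theca. It fell by 1.48 ± 0.36 (adjusted p = 0.0466), with overlapping groups. MAD2L1 of the spindle checkpoint fell by 0.94 ± 0.20 (adjusted p = 0.0343) and CCNE2, a cyclin of the start of DNA replication, by 0.89 ± 0.22 (adjusted p = 0.0481), and in both genes the groups overlapped. Theca was above both granulosa fractions of the same cow in all 4 genes, and what part theca RNA has in them was not tested. Without cow A or cow B 0 of the 4 were called and without cow C 1, PCLAF. CCND2 read -1.40, -1.20 and -0.95 without cows A, B and C.

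Against the 2.25% of all genes that fell, the share was 9.09% for basement membrane genes, 15.4% for proteases and inhibitors, 4.17% for junction and adhesion genes, 7.14% for the IGF system and 6.25% for angiogenic genes, the last 3 of which rest on 1 gene each. Of 22 basement membrane genes 2 fell (median -0.53), NID1 and LAMB1, a laminin chain, which stood at 7.97, 8.64 and 8.36 in antral granulosa, against 9.22, 9.82 and 9.87 in membrane granulosa, and fell by 1.32 ± 0.31 (adjusted p = 0.0457). COL4A1, a chain of collagen IV, read -0.53 (adjusted p = 0.0659). Of 26 proteases and inhibitors 4 fell (median -0.26), A2M, MMP2, MMP14 and SERPINH1. MMP2, a gelatinase, lay below the limit on all antral arrays and fell by at least 1.71 (adjusted p = 0.0313), and MMP14, a membrane-bound metalloproteinase that activates it, fell by 0.76 ± 0.17 (adjusted p = 0.0387). SERPINH1, a chaperone of collagen, fell by 0.86 ± 0.14 (adjusted p = 0.0158). Of 24 junction and adhesion genes 1 fell (median -0.40), CDH11, a cadherin of mesenchyme, at 9.26, 8.90 and 9.31 in antral granulosa, against 10.65, 9.93 and 10.35 in membrane granulosa, by 1.16 ± 0.27 (adjusted p = 0.0422). A second probe set of CDH11 read -1.34 and missed the threshold (adjusted p = 0.0537). GJA1, the main gap junction protein of granulosa cells, stood at 12.67, 12.90 and 13.09 in antral granulosa, against 13.12, 12.99 and 13.29 in membrane granulosa (interval -0.50 to 0.00). Of 14 genes of the IGF system 1 fell (median -0.37), the binding protein IGFBP7, by 0.68 ± 0.11 (adjusted p = 0.0146). Of 16 angiogenic genes 1 fell (median -0.31), NRP1, a VEGF co-receptor, by 0.88 ± 0.19 (adjusted p = 0.0336).

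Not all falls had theca above membrane granulosa. DDIT4, an inhibitor of mTOR signalling that low oxygen and stress induce, stood at 9.97, 10.27 and 9.76 in antral granulosa, against 11.49, 11.46 and 11.24 in membrane granulosa and 10.69, 10.12 and 10.95 in theca. Membrane arrays were above both others in each cow, and DDIT4 fell by 1.39 ± 0.26 (adjusted p = 0.0264). PKM, the last enzyme of glycolysis, stood at 7.58, 7.28 and 7.86 in antral granulosa, against 8.76, 8.22 and 8.92 in membrane granulosa and 7.65, 7.13 and 8.45 in theca, and fell by 1.06 ± 0.18 (adjusted p = 0.0206). The membrane array was again the highest of the 3 in each cow. API5, an inhibitor of apoptosis that was named after its values were seen, stood at 7.14, 6.92 and 7.27 in antral granulosa, against 8.87, 8.26 and 8.67 in membrane granulosa and 8.08, 7.88 and 8.45 in theca, and fell by 1.49 ± 0.24 (adjusted p = 0.0169).

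DDIT4 and PKM belong to the list of hypoxia and glycolysis genes, of which 2 fell and 1 rose among 32 measured (9.38%, against 3.41% of all genes called, median -0.02). Before LH 9 genes of this list were called higher in antral granulosa and 0 lower, with a median of 0.42 against 0.04 over all genes. Of all 9155 genes 96 were called higher and 140 lower before LH. PFKFB3, a regulator of glycolysis, read -0.14 after LH and 1.57 before it (adjusted p before LH = 0.0279), and SLC16A3, a lactate exporter, 0.05 after LH and 1.33 before it (adjusted p before LH = 0.024). The difference between the stages had an unadjusted p of 0.00196 for PFKFB3 and 0.00352 for SLC16A3, and neither was called over all probe sets. The 2 genes were named after their values were seen.

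Rises were smaller, and CCL3 led the named genes. CCL3, a chemokine that draws leukocytes, stood at 9.13, 8.41 and 7.52 in antral granulosa of cows A, B and C, against 7.01, 6.76 and 6.79 in membrane granulosa and 7.27, 7.03 and 7.12 in theca. The groups did not overlap, and cow A stood out. The rise was 1.50 ± 0.22 (adjusted p = 0.0146), 2.84-fold, and was least in cow C (2.13, 1.66 and 0.73 by cow). Its 2 other probe sets lay at the limit or below it and were not called. NEURL1, a ubiquitin ligase, stood at 7.93, 8.09 and 7.31 in antral granulosa, against 6.55, 6.74 and 6.10 in membrane granulosa, and rose by 1.32 ± 0.25 (adjusted p = 0.0277), alike in all 3 cows. ENO2, an enolase of glycolysis, stood at 6.24, 6.04 and 6.16 in antral granulosa, against 6.09, 4.74 and 4.65 in membrane granulosa. It rose by 0.98 ± 0.24 (adjusted p = 0.0459), with overlapping groups and a difference of 0.15 in cow A. ENO2 was called in 4 of 15 alternative fits, and was lost with quantile normalization, with no replicate block, with only the granulosa arrays and with any cow left out.

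The other 12 of the 15 largest rises lay between 0.82 and 0.98. They include GABBR1, a subunit of the GABA-B receptor, at 8.66, 8.52 and 7.95 in antral granulosa, against 7.19, 7.85 and 7.26 in membrane granulosa, and SLC25A29, a mitochondrial carrier of basic amino acids. ARHGEF6, an exchange factor for Rac GTPases, stood at 8.41, 7.74 and 7.75 in antral granulosa, against 7.46, 6.88 and 6.81 in membrane granulosa, and rose by 0.92 ± 0.18 (adjusted p = 0.028). Neither GABBR1 nor ARHGEF6 overlapped between the groups. SFPQ and LUC7L, which act in splicing, rose by 0.86 ± 0.20 and 0.85 ± 0.17 (adjusted p = 0.0435 and 0.0304). SFPQ was called in 7 of 16 alternative fits and LUC7L in 9, and both were lost with cow A, B or C left out. A second, dimmer probe set of SFPQ read 0.54 and was not called (adjusted p = 0.191). MYL6, a myosin light chain, stood at 12.82, 12.63 and 13.21 in antral granulosa, against 11.85, 11.81 and 12.48 in membrane granulosa and 12.87, 13.04 and 12.72 in theca, and rose by 0.84 ± 0.16 (adjusted p = 0.028). The rest were LRCH4, SLC30A2 (a zinc transporter), SCAMP5 (by at least 0.66), FFAR3 (a receptor for short-chain fatty acids), DEF6 and HYAL3 (of the hyaluronidase family). SLC30A2 was called in 6 of 16 alternative fits, and was lost with quantile normalization and with any cow left out. For LRCH4 both other probe sets above the limit were not called (0.67 and 0.35). Before LH 2 of the 15 were called, NEURL1 and SCAMP5, and 9 were higher in 3 of 3 cows. Of all 9155 genes 96 were called higher and 140 lower before LH.

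**Figure D5:**
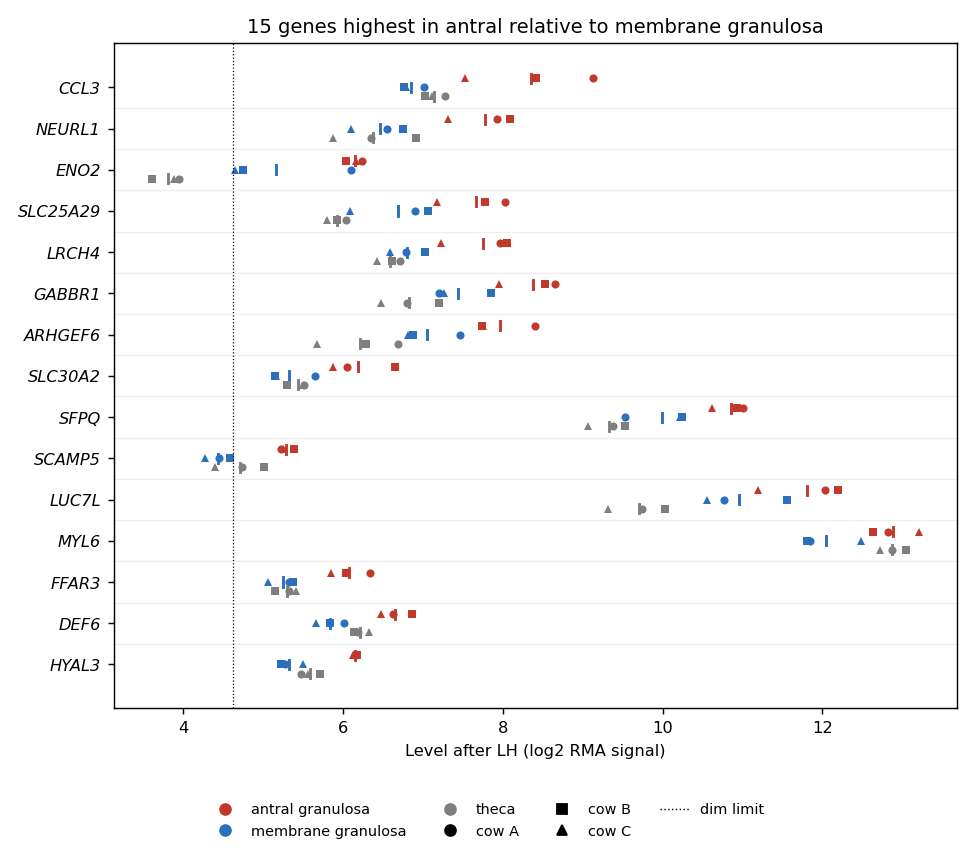
Log2 levels after LH of the 15 genes with the largest rises, drawn as for the falls: antral granulosa red (upper), membrane granulosa blue (middle) and theca grey (lower), with cows as symbols. Antral arrays lie right of membrane arrays in all genes but ENO2 and LUC7L, where the groups overlap, and the gaps are narrower than for the falls.

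Many rises lay at dim levels in membrane granulosa. Of the 343 probe sets that rose, 150 (43.7%) were below the limit on all 3 membrane arrays and 67 (19.5%) on all 6 arrays. Of all 24016 probe sets 7613 (31.7%) were below it on all 3 membrane arrays and 6734 on all 6, a larger share than the 19.5%. The 7 bacterial control probe sets, for RNA added in the laboratory (BioB, BioC and BioDn), averaged 10.97, 10.63 and 9.75 on the antral arrays of cows A, B and C, against 9.57, 9.86 and 9.59 on the membrane arrays. The 8005 dimmest probe sets averaged 3.77, 3.75 and 3.68 on the antral arrays, against 3.60, 3.59 and 3.60 on the membrane arrays. The median rise by cow was 0.73, 0.67 and 0.55 in cows A, B and C, where the spike-in gap was 1.40, 0.78 and 0.17. The median fall was -0.97, -0.77 and -0.81, not in the order of the gap. Before LH the probe sets that rose had medians of 0.23, 0.34 and 0.20 in cows D, F and G, where the gap was -0.05, 0.85 and -0.01. With the spike-in level as a covariate 0 probe sets were called in limma (2470 at an unadjusted p under 0.05), and ALDH1A1 read -6.09. All 343 rises and 378 falls kept their sign in this fit. The covariate was higher on the antral array in each of cows A, B and C. The loss of calls therefore does not show how much of the differences goes with it. Of the 15 largest rises ENO2 (1.39), ARHGEF6 (1.09), MYL6 (0.93) and SCAMP5 (0.91) were then larger, and the others smaller, among them CCL3 (0.88) and FFAR3 (0.44). The GAPDH 3' minus 5' signal, a sign of RNA quality, was 0.87, 0.64 and 0.46 on the antral arrays, against 0.54, 0.65 and 0.34 on the membrane arrays. The same signal of actin was 1.59, 1.82 and 1.70 on the antral arrays, against 1.35, 1.36 and 1.34 on the membrane arrays, higher on the antral array in each cow. What part RNA amount or quality has in the rises was not tested.

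Of 32 genes of inflammation and chemokines 2 rose and 1 fell (9.38%, against 3.41% of all genes called, median 0.03). CXCL10, an interferon-induced chemokine, lay below the limit on all antral arrays, against 5.96, 6.31 and 6.17 in membrane granulosa and 9.45, 10.27 and 8.53 in theca, and fell by at least 1.52 (adjusted p = 0.0146). CXCL2 was called higher but lay below the limit on all 6 arrays, so no size is given. Of 28 immediate early and heat shock genes 1 fell (3.57%, median -0.29), HSPA5, a chaperone of the endoplasmic reticulum. It stood at 11.29, 11.29 and 11.99 in antral granulosa, against 12.06, 11.71 and 12.76 in membrane granulosa, and fell by 0.65 ± 0.15 (adjusted p = 0.0419), with overlap, and a second probe set fell by 1.12 (adjusted p = 0.0113). Of 21 genes of cell death and survival 0 were called (2 at an unadjusted p under 0.05, median -0.01), with BAX, which opens the mitochondrial outer membrane, at -1.24 (interval -2.01 to -0.47, adjusted p = 0.0735, and 0.0405 with only the granulosa arrays).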

How the data were processed

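Per the labels' protocols, total RNA isolated with Trizol was labelled with biotin by in-vitro transcription from the 3' end. The deposited log2 values come from RMA in Partek 6.5, per the submitters' processing notes. Its settings and any genome build are not given in the sources used here. The values of the 24128 probe sets run from 2.29 to 14.90, and the median of an array lies between 5.74 and 5.86. Precision is limited by the number of arrays, and no pair of arrays was identical. The 112 control probe sets were left out. Of the 24016 tested, 13292 carry 1 gene symbol in the platform annotation, which can be old, 86 carry several and 10638 none. No sequence or coordinate is used here.

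The model took all 18 arrays (lmFit and eBayes of limma 3.58.1, R 4.3.3), with population within stage and the cow as a fixed block, which left 8 residual degrees of freedom, and the Benjamini-Hochberg correction. The pairing comes from the cow named in the labels. After removing group means, the antral and membrane arrays of cows A, B and C correlated at 0.46, 0.69 and 0.67. The labels give separate cows as replicates. The fit was tested on simulated data with independent noise. Such data cannot show how the fit behaves when the signal of a whole array is shifted.

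The comparison and the 24 gene lists were chosen with earlier results of these data known. Of 560 listed genes 448 were measured, 32 genes stand in several lists, and 9 lists had no called gene. No list was tested as a set. Named genes are the 15 largest rises and falls among called genes with the same sign in 3 cows, the 4 or fewer best members of each list by adjusted p, and 20 genes of follicle function whatever their values. PTCH1 and any gene said to be so were named after their values were seen. Alternatives were quantile normalization, median centring, leaving out the 8005 dimmest probe sets, a single probe set for each gene, a trended robust eBayes, other blocks, only granulosa arrays, a minimum difference of 1, and each cow left out. The spike-in covariate and cow C alone were chosen after seeing the data. Python 3.11.15 with matplotlib 3.10.9 drew the figures.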

Additional observations from a re-analysis of the deposited data

Results flagged for a closer look

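CCND2, PCLAF and TNFAIP6 went one way in all 3 cows after LH and the other way in all 3 cows before it. CCND2 read -1.18 after LH (-0.75, -1.15 and -1.65 in cows A, B and C) and 0.41 before it (0.63, 0.18 and 0.41 in cows D, F and G). The difference between the stages had an unadjusted p of 0.00018 and an adjusted p of 0.236 in limma. PCLAF read -1.48 after LH and 0.31 before it (unadjusted p = 0.00392, adjusted p = 0.411 in limma). TNFAIP6 read 0.0945 after LH and -1.29 before it (unadjusted p = 0.0379, adjusted p = 0.518 in limma). No such difference passed the correction over all probe sets. The cows of the 2 stages are different animals.

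The bacterial spike-in control probe sets, which the comparison leaves out, were brighter on the antral arrays after LH. Their mean was higher by 0.78 over the 3 cows after LH and by 0.27 before it, the second resting on cow F (-0.05, 0.85 and -0.01 in cows D, F and G).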

How the results depend on the processing

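The calls depend on the fit. Of 65 named genes called, leaving out cow A kept 3, cow B 0 and cow C 27, and only the granulosa arrays kept 59 and added 22. With 721 called (343 higher, 378 lower), quantile normalization gave 244 lower, leaving out the 8005 dimmest probe sets 196 higher, and 1 probe set per gene 339 (113 and 226). With no replicate block, so without pairing by cow, 297 were called (177 and 120). A random replicate block gave 605 higher, and only the granulosa arrays gave 1226 called, 858 of them lower, of which 528 called probe sets are shared with the 721. A minimum difference of 1 left 162 (19 and 143). Leaving out 1 cow gave 0 to 600 called, 0 to 256 higher and 0 to 344 lower. The spike-in covariate and cow C alone, both chosen after seeing the data, gave 0 called, 0 higher and 0 lower (2470 and 2009 at an unadjusted p under 0.05 in limma). All 343 rises and 378 falls kept their sign with the spike-in covariate. The 15 largest falls ranged from -6.30 to -2.15 over the alternatives. For the difference between the stages, 0 were called, against 1 each with quantile normalization, without the dimmest probe sets, with 1 probe set per gene and with trend and robust, 3 each with a random block and only granulosa arrays, and 0 to 20 leaving out 1 cow. Differences of dim probe sets are bounds or can be understated.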

Other observations

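Further genes that fell in antral granulosa after LH belong to no list, and were named after their values were seen. SELENOP, the selenium carrier of plasma, stood at 9.22, 10.14 and 10.07 in antral granulosa of cows A, B and C, against 11.55, 11.99 and 12.03 in membrane granulosa and 13.45, 13.28 and 12.90 in theca, and fell by 2.05 ± 0.24 (adjusted p = 0.00678). CLEC3B, a plasminogen-binding lectin, stood at 5.46, 4.85 and 4.95 in antral granulosa, against 6.85, 7.62 and 8.05 in membrane granulosa, and fell by 2.42 ± 0.42 (adjusted p = 0.0206). CHST2, a sulfotransferase of glycans, lay below the limit on all 3 antral arrays and fell by at least 1.24 (adjusted p = 0.0132). For these 3 genes the groups did not overlap.

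ERP29, TMED9 and FKBP10 fell as well, and were also named after their values were seen. ERP29, a protein of the endoplasmic reticulum, stood at 8.90, 8.55 and 8.33 in antral granulosa, against 9.82, 9.75 and 9.67 in membrane granulosa and 10.21, 10.13 and 9.75 in theca, and fell by 1.15 ± 0.17 (adjusted p = 0.0146). TMED9, a cargo receptor between the endoplasmic reticulum and the Golgi, stood at 8.66, 8.85 and 8.02 in antral granulosa, against 10.21, 9.81 and 9.71 in membrane granulosa and 10.24, 10.36 and 9.65 in theca, and fell by 1.40 ± 0.32 (adjusted p = 0.0402). FKBP10, which helps collagen fold, fell by 1.48 ± 0.30 (adjusted p = 0.0309). The antral arrays lay below the membrane arrays of every cow in these 3 genes.

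RHNO1, a protein of the DNA damage checkpoint, stood at 4.96, 5.53 and 4.55 in antral granulosa, against 7.02, 6.60 and 6.86 in membrane granulosa, and fell by 1.81 ± 0.24 (adjusted p = 0.0113). Before LH it read -0.07 (-0.20, -0.52 and 0.52 in cows D, F and G), and the difference between the stages had an unadjusted p of 0.000219 and an adjusted p of 0.251 in limma. The 2 probe sets of GPX1, a glutathione peroxidase, disagreed. The brighter one, by which the gene was read, averaged 12.99 in antral and 12.91 in membrane granulosa and was not called (adjusted p = 0.794). The dimmer one averaged 6.04 in antral granulosa and lay below the limit on all 3 membrane arrays, a rise of at least 1.41 (adjusted p = 0.00776). Before LH the dimmer probe set of GPX1 was also called higher (adjusted p = 0.000589).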
